A study of Mus musculus with 2 samples.

Results

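The red pulp macrophage iron recycling genes are 10 genes, Spic, Vcam1, Cd5l, Cd163, Hmox1, Slc40a1, Slc11a1, Ftl1, Fth1 and Tfrc, and all 10 were found by symbol among the 20938 genes listed for each library. They were chosen by macrophage identity and iron handling when the levels and fold differences of the same libraries were already known, so those values are given here as a description. Splenic Treg cells were sequenced at day 7 after transplantation of BALB/c islets, with 1 RNA-seq library for littermate controls (Ctrl) and 1 for the Foxp3-Mettl14f/+ genotype (cKO). In the cKO mice a Cre recombinase driven by the Foxp3 promoter removes 1 floxed Mettl14 allele in cells that express Foxp3. The labels call the control genotype wild type, while the methods describe littermate controls as Mettl14f/f without giving a Cre allele. The labels name the other genotype a Foxp3 knockdown, and the Foxp3-Mettl14f/+ genotype of the methods is used here. Recipients were of C57BL/6J background and were made diabetic with streptozotocin before the transplant. The recipients had received no tolerance-inducing antibodies. The number and age of the animals behind each library are not given in the sources used here. The cells were enriched from red cell-lysed spleen suspensions by depleting cells other than CD4+ T cells and then selecting CD25+ cells.

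Red pulp macrophages are the resident macrophages of the spleen that take up aged red cells, break down their haemoglobin and return the iron to the blood. Spi-C, encoded by Spic, is the transcription factor required for these macrophages, and heme induces it by releasing the repressor Bach1. Heme oxygenase opens the heme ring, ferritin stores the freed iron, and ferroportin exports it, whereas the transferrin receptor carries iron into erythroblasts and dividing cells. Iron acts on part of this system after transcription. When iron is scarce, iron regulatory proteins bind hairpins called iron-responsive elements, which block translation when they lie in the 5′ UTR and stabilise the mRNA when they lie in the 3′ UTR.

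The iron-responsive elements of the members are shown because their position sets apart the genes for storage and export from the gene for uptake. These genes did not differ alike between the libraries, nor did the 3 with elements in the 5′ UTR differ alike among themselves. Whether the elements bear on these differences was not tested, and read counts do not measure translation. Coding transcripts of GENCODE vM21 (GRCm38) were searched for a C, 5 bases, the letters CAGTG, 1 base other than G and 5 bases that can pair with the first 5, G-T pairs allowed, and 4 of the 10 members held a match. Of 21877 genes with a coding transcript, 222 (1.01%) held such a match in any of their coding transcripts. The members were searched in 1 principal transcript each, so the 2 counts are not alike. The pattern describes the element itself, so the share among the members is not a result. Each 30-base stretch is given 5′ to 3′ with T for U, and the capitals mark the loop. The first 3 lie in the 5′ UTR and the 4 found for Tfrc in the 3′ UTR. Elements that depart from the pattern would have been missed.
Fth1, chr19:9982731-9982760, plus strand: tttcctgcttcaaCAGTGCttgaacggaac
Ftl1, chr7:45459779-45459808, minus strand: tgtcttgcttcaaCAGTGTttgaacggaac
Slc40a1, chr1:45925465-45925494, minus strand: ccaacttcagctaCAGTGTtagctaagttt
Tfrc element 1, chr16:32631218-32631247, plus strand: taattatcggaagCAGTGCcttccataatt
Tfrc element 2, chr16:32631597-32631626, plus strand: acattatcgggagCAGTGTcttccataatg
Tfrc element 3, chr16:32631662-32631691, plus strand: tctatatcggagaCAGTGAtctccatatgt
Tfrc element 4, chr16:32631709-32631738, plus strand: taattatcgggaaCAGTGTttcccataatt
The ferritin heavy and light chain elements were identical at 27 of 30 positions, whereas the ferroportin element matched each of them at 13 and the Tfrc elements at 13 to 16. The C and the letters CAGTG match in all pairs because the search required them. The 4 Tfrc elements matched one another at 18 to 25 positions. The other 6 members held no match to this pattern in the transcripts searched.

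The deposited level of a gene is its reads divided by a size factor of the library. Every level is a whole multiple of the smallest level of its library, and dividing by that step gave 20239325 reads for Ctrl and 18327535 for cKO. T cell markers were present, with 14 T cell core genes at levels of 1873 to 8098 in Ctrl and 1400 to 5297 in cKO. Their reads summed to 58992 in Ctrl and 39603 in cKO. Markers of other cells were present too, and 13 granulocyte markers summed to more, 245258 and 286926 reads. Foxp3 was at 1497 and 1548, and Mettl14, the targeted gene, at 917 and 741, a ratio of 0.808 (95% interval 0.731 to 0.894). The median ratio of the 14 T cell core genes was 0.822, inside that interval. Whether Mettl14 was lower beyond the T cell genes was not tested. With 1 library per genotype, no difference has a replicate check, and genotype cannot be told apart from animal, isolation or library. The 95% intervals are exact, were computed from recovered reads and hold only counting error; the libraries carry no stated molecular identifiers, so that 1 molecule may give several reads.

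Of the identity genes, all 4 were at least 1.5-fold higher in cKO, beside 17.2% of all genes whose mean level was 1 or more. Among genes at least as abundant as Spic that share was 12.0%. Spic, on the minus strand of chromosome 10 from 88674772 to 88685015 (GRCm38, as for all positions here), was at a level of 31.9 in Ctrl and 161 in cKO, from 33 and 142 reads. This was a 5.06-fold difference (95% interval 3.44 to 7.63). Vcam1, on chromosome 3 from 116109949 to 116129688, encodes the adhesion molecule by which macrophages hold erythroblasts, and it is also found on endothelium. Its level was 304 in Ctrl and 3019 in cKO. The difference was 9.94-fold (95% interval 8.84 to 11.2), the narrowest interval among these 4 genes relative to its size. Cd5l, on chromosome 3 from 87357881 to 87371073, encodes a scavenger receptor-like protein secreted by tissue macrophages. It had 26 reads in Ctrl and 479 in cKO, or levels of 25.2 and 545. It was 21.7-fold higher (95% interval 14.6 to 33.5), and of all 10 genes it differed most, while its control count left the widest interval. Cd163, on chromosome 6 from 124304656 to 124330527, encodes the receptor for haemoglobin bound to haptoglobin. Its level of 177 in Ctrl and 398 in cKO gave a 2.25-fold difference (95% interval 1.87 to 2.70), well below that of the other identity genes.

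**Figure D1:**
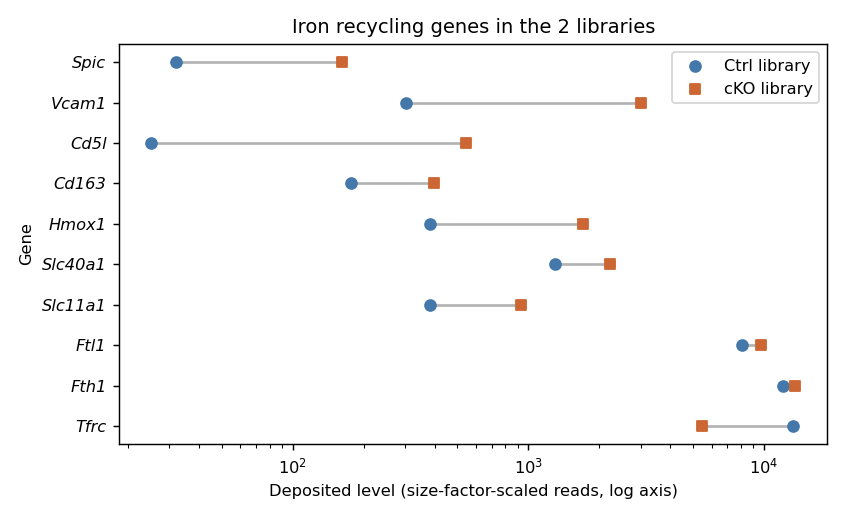
Deposited level of each gene (log axis, size-factor-scaled reads) in Ctrl (circles) and the cKO library (squares), with a line joining both. Vcam1 moved from 304 to 3019 and Cd5l from 25.2 to 545, Ftl1 and Fth1 lay close together in both libraries, and Tfrc, at 13232 and 5436, was the 1 gene lower in cKO.

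RefSeq promoter windows (GRCm38.p6), from 250 bases before to 50 bases after the gene start, were given for 7 of the 10 members and not for Hmox1, Slc40a1 and Vcam1. Both strands were searched for short motifs, of which 2 are given here. GAGGAA, the core bound by PU.1 and Spi-C, was present in the windows of Slc11a1 and Cd5l, 2 of the 7 members, and in 28.3% of all 32851 windows. TGACNNNGC, the core of the element used by Nrf2 and Bach1, was in 0 of the 7 members and 12.4% of all windows. A match is a stretch of letters and was not tested as a binding site.

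The genes that break down heme and move iron out of the phagosome and the cell were also higher in cKO, by 1.72-fold to 4.47-fold. Hmox1, on chromosome 8 from 75093621 to 75100589, encodes the inducible heme oxygenase. It was at 381 in Ctrl and 1705 in cKO, a 4.47-fold difference (95% interval 4.0 to 5.01). Slc11a1, on chromosome 1 from 74375195 to 74386062, encodes the metal transporter of the phagosome membrane and is also expressed by monocytes and neutrophils. Its levels were 383 and 935, a 2.44-fold difference (95% interval 2.16 to 2.76). Slc40a1, on chromosome 1 from 45908068 to 45926523, encodes ferroportin, the iron exporter, and is also transcribed in erythroblasts. Its levels of 1295 and 2229 differed 1.72-fold (95% interval 1.60 to 1.85). The intervals of Hmox1, Slc11a1 and Slc40a1 do not overlap one another, so these 3 transcripts differed by unequal amounts between the libraries.

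**Figure D2:**
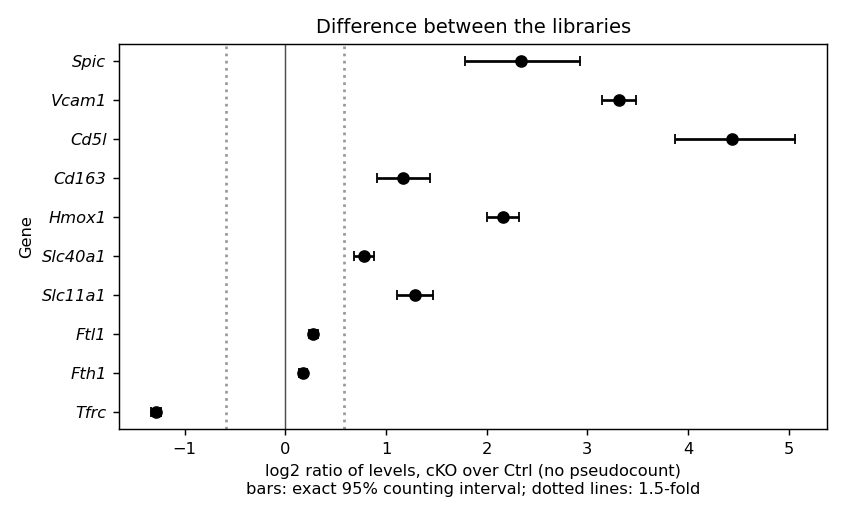
Ratio of cKO to control level on a log2 scale for each gene, with exact 95% counting intervals and dotted lines at 1.5-fold. Cd5l and Vcam1 lie farthest to the right, Ftl1 and Fth1 lie between the dotted lines, and Tfrc alone lies to the left of 0.

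Both ferritin genes were abundant and nearly level between the libraries. Fth1, on chromosome 19 from 9980598 to 9985098, encodes the heavy chain, which oxidises iron. It was at 12024 in Ctrl and 13572 in cKO, a ratio of 1.13 (95% interval 1.10 to 1.16). Ftl1, on chromosome 7 from 45457944 to 45459884, encodes the light chain, which aids mineral formation inside the shell. Its levels were 8027 and 9739, a ratio of 1.21 (95% interval 1.18 to 1.25). Neither gene reached 1.5-fold under any of the scalings tried, and both remained above 0 on the log2 scale. Per kb of transcript, heavy chain reads were 1.56 times light chain reads in Ctrl (95% interval 1.52 to 1.60) and 1.45 times in cKO (1.41 to 1.49). These intervals did not overlap, so the heavy chain share was slightly lower in cKO. Ferritins have many processed copies in the genome; 6 named copies were in the tables, with 10 reads together in Ctrl and 0 in cKO, and where reads from other copies were counted is not given in the sources used here. The ferritin levels are uncertain to that extent.

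Tfrc moved the other way. It lies on the plus strand of chromosome 16 from 32608920 to 32632794 and encodes transferrin receptor 1. Its level was 13232 in Ctrl and 5436 in cKO, from 13678 and 4780 reads, a 2.43-fold lower level (95% interval 2.36 to 2.52). Of the 18 erythroid genes found, 17 were at least 1.5-fold lower in cKO and 0 were higher, with a median log2 fold difference of -1.21, against -1.28 for Tfrc. Of all genes with a mean level of 1 or more, 24.2% were that much lower and 17.2% higher. Klf1, a red cell transcription factor, was at -1.56 and Tal1, a blood progenitor and red cell factor, at -3.30, while Alas2, the erythroid enzyme that starts heme synthesis and itself a carrier of an iron-responsive element, was at 0.05. Summed, the erythroid genes had 48179 reads in Ctrl and 16772 in cKO. Expressed per 1000 of these reads, a measure chosen after the values were seen, Tfrc was at 283.9 in Ctrl and 285.0 in cKO, a ratio of 1.004 (95% interval 0.971 to 1.04). The ratio depends on the genes summed, and no other erythroid sum was tried. Car2 alone held 13342 of the summed reads in Ctrl and 4666 in cKO. The globin genes, which did not follow this list, were left out of the sum. This interval and the next treat the summed reads as fixed. Against 15 proliferation genes, of which 12 were at least 1.5-fold lower and whose reads summed to 94026 and 51585, Tfrc was at 145 and 92.7 per 1000 reads, a ratio of 0.637 (0.616 to 0.658). In a bulk library, fewer cells of a type and less RNA per cell cannot be told apart.

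**Figure D3:**
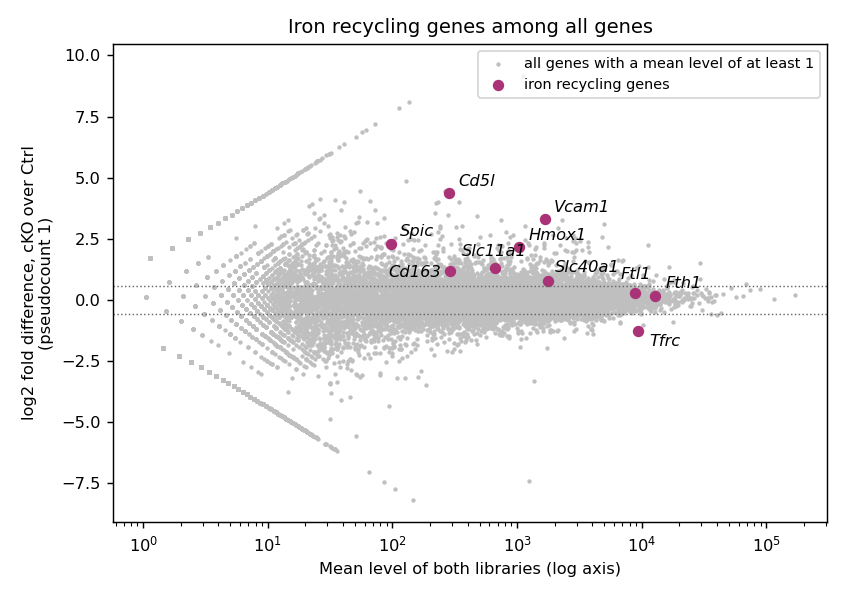
Log2 fold difference with a pseudocount of 1 (y axis) against mean level (log x axis) for the 16659 genes whose mean level was 1 or more, with the 10 iron recycling genes marked and dotted lines at 1.5-fold. Spic, Hmox1, Vcam1 and Cd5l lie above the bulk of genes of like level, and Tfrc below it.

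Together, 7 of the 10 genes were at least 1.5-fold higher in cKO, 1 was at least 1.5-fold lower and 2 were neither. Of the 16659 genes whose mean level was 1 or more, 17.2% passed that threshold upwards and 24.2% downwards. Among the 10744 genes at least as abundant as Spic, the member with the lowest mean, these shares were 12.0% and 8.80%. At a 2-fold threshold 6 members were higher and 1 lower, against 10.3% and 18.1% of the 16659 genes. All 10 members passed the filter on low levels. The median log2 fold difference of the members was 1.22, with a range from -1.28 to 4.38, and that of all genes was -0.04. Scaling both libraries to equal T cell core levels shifted the median of all genes by 0.28 to 0.24, the members' median to 1.51 and the share of differing genes that were higher from 41.6% to 58.3%. Because the list was assembled with results known, its share is not independent evidence of a direction.

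Levels between genes were compared per kb of transcript, and the order changed between the libraries. In both libraries Fth1 was highest, followed by Ftl1 and Tfrc. Fth1 was at a level per kb of 12943 in Ctrl and 14609 in cKO. In the control library the order then ran Slc40a1, Hmox1, Slc11a1, Vcam1, Cd163, Spic and Cd5l. Spic and Cd5l, at 18.1 and 12.4 per kb, were not separated there, since their counting intervals overlapped. In the cKO library Hmox1 came next, at 1086 per kb, with an interval that overlapped that of Tfrc at 1112. Vcam1 followed at 870, ahead of Slc40a1 at 661, Slc11a1 at 404 and Cd5l at 268. Spic and Cd163, at 91.6 and 90.4 per kb, were not separated there. By rank alone, Vcam1 and Cd5l thus each gained 2 places and Slc40a1 and Cd163 each lost 2. The ranks of Cd5l in Ctrl and of Cd163 in cKO rest on pairs that were not separated.

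Markers of macrophages moved with the list, while 17.2% of all genes were at least 1.5-fold higher in cKO and 24.2% lower. All 12 macrophage core genes were at least 1.5-fold higher in cKO, none was at 0 in either library, and their reads summed to 4674 and 11493. Their differences were uneven. Csf1r, the receptor for the macrophage growth factor, was 2.22-fold higher, whereas Mertk, an uptake receptor for dying cells, was 12.0-fold higher, and C1qb was at 3.46 on the log2 scale. Of 20 other red pulp macrophage genes, which share Adgre1 and Mrc1 with the core list, 17 were at least 1.5-fold higher and 1 was lower, with a median of 1.47. Itgad, the integrin subunit of red pulp macrophages, was at 103 and 580, a 5.66-fold difference (95% interval 4.58 to 7.04). Treml4 was 2.86-fold higher (95% interval 2.38 to 3.45) and Adgre1, a macrophage surface receptor, 2.42-fold (2.13 to 2.76). Mrc1, the mannose receptor, was 6.98-fold higher (95% interval 6.03 to 8.11). Timd4, a phosphatidylserine receptor, had 0 reads in Ctrl and 89 in cKO, at least 34.9-fold higher when Ctrl is set to the floor of 3 reads, with an exact lower 95% limit of 27.8-fold when counting error in both libraries is taken in. Of 1953 genes with a cKO count within 2-fold of 89 reads, 12 (0.614%) had 0 reads in Ctrl. Paqr9 was the 1 gene of this list at least 1.5-fold lower, at 735 and 331. The part of macrophage content in the members' differences was not tested.

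Set against the macrophage core reads of the same library, the 10 genes divided. Vcam1 had 67.2 reads per 1000 macrophage core reads in Ctrl and 231 in cKO, a ratio of 3.44 (95% interval 3.06 to 3.88). Cd5l went from 5.56 to 41.7, a ratio of 7.49 (5.05 to 11.6). Both ratios stayed above 1 with each of the 4 denominators tried. Spic, at 7.06 and 12.4, had a ratio of 1.75 (1.19 to 2.64), and Hmox1, at 84.3 and 130, a ratio of 1.55 (1.38 to 1.73), but both turned below 1, to 0.939 and 0.830, when the median of the 12 gene ratios replaced the sum. Slc40a1 went from 286 to 171, a ratio of 0.595 (0.555 to 0.639), below 1 with all 4 denominators. Cd163, at 39.2 and 30.5, had a ratio of 0.778 (0.649 to 0.935), and Slc11a1, at 84.7 and 71.5, a ratio of 0.844 (0.748 to 0.954). Without the C1q genes in the sum, the intervals of Cd163 and Slc11a1 reached 1.02 and 1.04, and without Adgre1 and Mrc1 that of Slc11a1 reached 1.01. The ferritins and Tfrc were below 1 with all 4 denominators, with ratios of 0.391 for Fth1, 0.420 for Ftl1 and 0.142 for Tfrc against the sum. The intervals of these ratios treat the summed core reads as fixed. Thus only Vcam1 and Cd5l exceeded macrophage core reads whichever of these denominators was used. The sums share most of their genes. Csf1r alone, 2.22-fold higher, held 2197 of the 4674 core reads in Ctrl and 4145 of the 11493 in cKO. As a level the sum of 12 genes was 2.89-fold higher in cKO, while the median of the gene ratios was 5.39. The core genes themselves ranged from 0.72 to 3.55 on the log2 scale, and Vcam1, at 3.31, lay within that range. These denominators therefore do not set Vcam1 apart from single macrophage core genes.

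**Figure D4:**
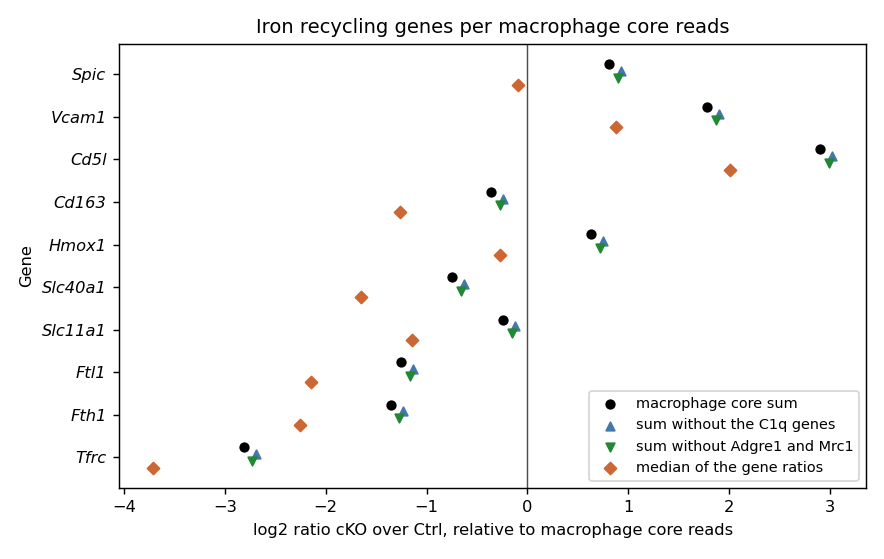
Log2 ratio of cKO to control for each gene relative to macrophage core reads, with 4 denominators marked by symbol: the sum of 12 genes, the sum without the C1q genes, the sum without Adgre1 and Mrc1, and the median of the gene ratios. Vcam1 and Cd5l lie right of 0 for all 4 symbols, Spic and Hmox1 change sign for the median of the gene ratios, and the other 6 genes lie left of 0.

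The other iron handling genes were split in direction. Of 52 such genes, 49 passed the filter, 9 were higher and 10 lower by 1.5-fold or more and 30 were neither, beside 17.2% higher and 24.2% lower among all genes. Most of the 49 were at least as abundant as Spic, and among all genes that abundant the shares were 12.0% and 8.80%. Their median was -0.03. When scaled to equal T cell core levels, 14 were higher and 7 lower and the median became 0.25. Whether they differed from the members was not tested. Among 12 uptake and reduction genes, 4 were higher and 3 lower. Steap3, the ferrireductase of erythroid endosomes, was 2.74-fold lower and Tfr2, the second transferrin receptor, 2.34-fold lower. Trf, which encodes transferrin, was 1.98-fold higher (95% interval 1.78 to 2.21) and Steap4 1.85-fold higher. Among the 10 heme and haemoglobin handling genes past the filter, 1 was higher and 4 lower. That 1 gene was Lrp1, the receptor that clears heme bound to hemopexin, at 3084 and 8313, a 2.70-fold difference. Blvrb, a biliverdin reductase abundant in red cells, was 1.96-fold lower, and Abcg2, a heme and porphyrin exporter, 1.87-fold lower. Slc48a1, which moves heme out of the phagolysosome, was at 1598 and 1282, a ratio of 0.802 (0.743 to 0.866), and Hmox2, the constitutive heme oxygenase, at 763 and 1063. Hp, which encodes haptoglobin, was at 4744 and 6099, a ratio of 1.29.

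Among the other genes for export, storage and sensing, 3 were higher, 2 lower and 14 neither, beside 17.2% higher and 24.2% lower among all genes. For genes at least as abundant as Spic these shares were 12.0% and 8.80%. Of 5 export and turnover genes past the filter, Cp, the ferroxidase ceruloplasmin, was 1.79-fold higher (95% interval 1.41 to 2.30). Ftmt, a mitochondrial ferritin, had 8 and 0 reads, and 60.8% of genes of like control depth had 0 reads in cKO. Ncoa4, which delivers ferritin for breakdown, was at 2175 and 2512, and Pcbp1, an iron chaperone of ferritin, had a ratio of 0.840. Hamp, which encodes the hormone that degrades ferroportin, had 0 reads in both libraries. Among the 14 sensing and heme response genes, 2 were at least 1.5-fold higher, 1 was lower and 11 were neither. Bach1, the heme-sensitive repressor of Hmox1 and Spic, had a ratio of 1.36 (95% interval 1.28 to 1.45), and Nfe2l2, which encodes the activator Nrf2, a ratio of 1.09. Aco1, which encodes iron regulatory protein 1, was at a ratio of 0.722 (0.652 to 0.799). Ireb2, which encodes iron regulatory protein 2, had a ratio of 1.13. Fbxl5, which marks that protein for breakdown when iron is present, had a ratio of 1.45 (1.37 to 1.54). Slc7a11, the cystine importer, was 2.49-fold higher and Maff was at 0.93 on the log2 scale, whereas Gclm, a subunit of the enzyme for glutathione synthesis, was 1.65-fold lower. Of 8 mitochondrial iron genes, Slc25a28, an iron importer, was 1.69-fold higher and Fech, which inserts iron into heme, 1.78-fold lower.

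**Figure D5:**
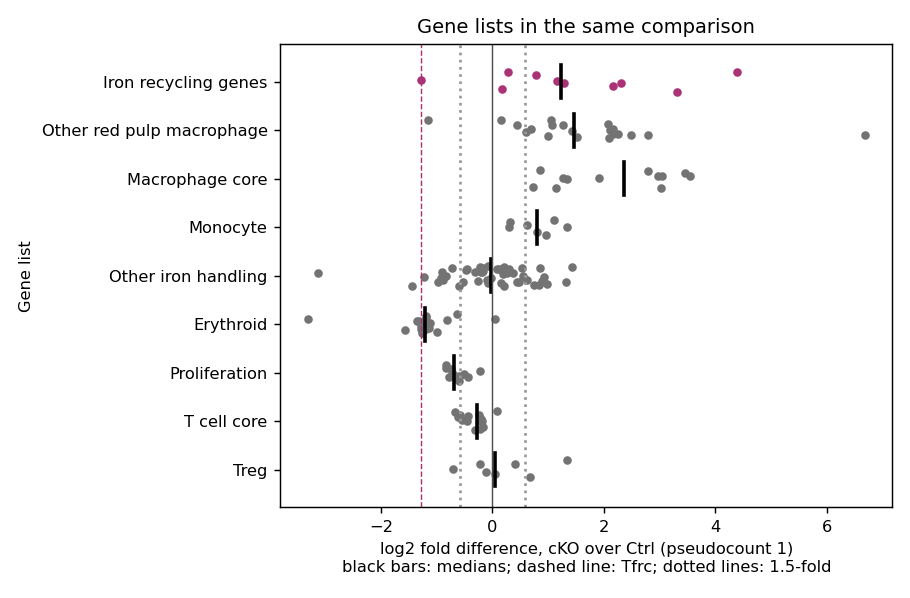
Log2 fold difference (pseudocount 1) of each gene past the filter on low levels in 9 gene lists, with black bars at the medians, a dashed line at Tfrc and dotted lines at 1.5-fold. The members range from -1.28 to 4.38, the macrophage lists lie mostly to the right, and the erythroid genes cluster at the dashed line with a median of -1.21.

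Other cell types that express single members were described in the same way, beside 17.2% of all genes higher and 24.2% lower by 1.5-fold or more. Counting only genes at least as abundant as Spic, 12.0% were higher and 8.80% lower. The 7 monocyte markers summed to 31151 reads in Ctrl and 47624 in cKO, with 5 at least 1.5-fold higher and a median of 0.80, below that of the macrophage core at 2.35. The 13 granulocyte markers summed to 245258 and 286926 reads, with 4 higher and 3 lower and a median of 0.44. Slc11a1, expressed by both, was at 1.28. Of 8 endothelial and stromal genes, which include sources of Vcam1, Col3a1 was at 0 in both libraries and Tek at 0 in cKO, and 1 was higher, 3 lower and 3 neither. Stab2, a scavenger receptor of splenic sinus endothelium, was the higher one, at 2.54 on the log2 scale, and Cdh5, the endothelial cadherin, was at -1.01. Of the 4 marginal zone macrophage genes, Cd209b was at 0 in both libraries, Siglec1 was at 1.57, and Marco had 0 and 20 reads. Of 1660 genes of like cKO depth to Marco, 228 (13.7%) had 0 reads in Ctrl. The 10 B cell genes were all at least 1.5-fold higher, with summed reads of 7736 and 36690. As a level that was a 5.58-fold difference, beside 5.06-fold for Spic. Among 14 T cell core genes 2 were at least 1.5-fold lower, and the 7 Treg genes had a median of 0.05. The part of these cell types, B cells included, in the values of the members, among them Spic, Vcam1, Slc11a1 and Slc40a1, was not tested.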

How the data were processed

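Per the labels, reads were aligned to mm10 with TopHat; the submitters' processing notes also name bcl2fastq 2.0, STAR, StringTie and DESeq2, without their roles. The counting tool and annotation are not given in the sources used here. The deposited signal is a read count divided by 1 size factor per library: 100% of values in both libraries were whole multiples of the smallest within 0.01 reads. Differences are log2 of level plus a pseudocount of 1, among genes whose mean level was 1 or more; ratios of levels carry exact Clopper-Pearson 95% intervals, and levels per kb exact Poisson intervals. No test of genotype was made. The 1.5-fold threshold is that of the labels.

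Members and lists were chosen with earlier results of these data known. Genes named are all members, the 2 highest and 2 lowest of a list at a mean level of 10 or more, and preset regulators and markers; others named for their counts were chosen after their values were seen. Gene positions and lengths came from GENCODE vM21 (GRCm38), using 1 principal transcript per gene. Of 16 T cell core genes 14 were matched, and of 19 erythroid genes 18. Alternatives were pseudocounts, filters, scalings, a 2-fold threshold and other denominators. Some promoter motifs searched are not reported here. The steps were tested on simulated data. Python 3.11.15, scipy 1.17.1, R 4.3.3 and edgeR 4.0.16 were used.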

Additional observations from a re-analysis of the deposited data

How the results depend on the processing

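No paired analysis was possible because there was only 1 library for either genotype, and for the same reason none could be left out. The counts of members, 7 higher and 1 lower, stayed within 1.5 times under every alternative run. When levels were scaled to equal T cell core genes, the medians moved to 1.51 for the members, 1.75 for the other red pulp macrophage genes, 0.25 for the other iron handling genes and -0.92 for the erythroid genes, and the other iron handling genes numbered 14 higher. At a 2-fold threshold 2 of the other iron handling genes were higher and 3 lower. With the median of the gene ratios as denominator, 2 in place of 4 members exceeded macrophage core reads, and the log2 ratio of Spic became -0.090 and that of Hmox1 -0.27. In reads instead of reads per kb, the ferritin heavy to light ratio was 1.50 and 1.39. Differences ranged from 2.17 to 2.58 for Spic and from -1.37 to -1.001 for Tfrc, and no member changed direction under the scalings, pseudocounts and filters run. An exact two-sided binomial test of recovered reads, added after the data were seen, sets 1 library against the other and says nothing of genotype. At an adjusted p threshold of 0.1 and 1.5-fold or more it called 2098 genes higher and 2670 lower of 14863; under a biological coefficient of variation set by assumption to 0.4, edgeR's exact test called 229 and 569 at the same thresholds. Depth limits Spic and Cd5l most, with 33 and 26 control reads.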

Other observations

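The genes nearest to Spic in log2 fold difference, among 1898 genes with a mean level within a factor of 2 of its own, were Cma1 at 2.32 and Alox12 and Ffar1 at 2.33, against 2.30 for Spic. Cma1 encodes a mast cell chymase. This likeness rests on 1 difference between 2 libraries.

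Globin genes did not follow Tfrc and the erythroid list. Hba-a1 had 1691 reads in Ctrl and 1567 in cKO, a level ratio of 1.09 (95% interval 1.02 to 1.17), and Hba-a2, its near-identical copy, had 3392 and 3917, a ratio of 1.36 (1.30 to 1.42). Hbb-bt, a beta globin gene, had a ratio of 0.960 (0.863 to 1.07). Alas2, at 502 and 519, was also level. Hbb-bs had 3 and 2626 reads and Hbb-b1, another beta globin gene, 2583 and 12. Nearly all reads of this pair thus fell on a different gene in each library. The source of this exchange was not tested, nor was whether both libraries share a strain background at this locus.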
